A study of Mus musculus with 36 samples.

Results

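The calcitonin receptor family of the mouse has 2 receptors, Calcr (calcitonin receptor) and Calcrl (calcitonin receptor-like receptor), and 3 accessory proteins, Ramp1, Ramp2 and Ramp3 (receptor activity-modifying proteins). These 5 genes were chosen by symbol, out of 30284 genes with deposited values, and each symbol matched 1 Ensembl gene. They were followed through 36 RNA-seq libraries of primary bone cells from 20-week-old mice, 6 libraries in each of 6 groups. The groups were wild-type controls (WT) or mice lacking the microRNA gene Mir324 (null), each as bone marrow macrophages (BMM), osteoclasts (OC) or osteoblasts (OB). BMM, the precursors of osteoclasts, were marrow cells first expanded in M-CSF and then kept for 5 days in M-CSF at 30 ng/mL. OC came from the same kind of marrow cells, kept for 5 days in M-CSF at 30 ng/mL with the osteoclast-inducing cytokine RANK-L at 50 ng/mL. OB had grown out of collagenase-treated bone chips over several weeks and were kept for 18 days in medium with β-glycerophosphate and ascorbic acid. The labels give the null allele by genotype alone, with no promoter or Cre. The labels number the 6 libraries of a group without saying that they came from separate mice, so p-values measure only the spread between these libraries, which may be technical.

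Calcr and Calcrl are class B G protein-coupled receptors that raise cyclic AMP through the stimulatory G protein Gs. Calcr binds calcitonin on its own and becomes an amylin receptor when a RAMP joins it. Calcrl reaches the cell surface only with a RAMP, and the RAMP sets its ligand: with RAMP1 it is the receptor for calcitonin gene-related peptide (CGRP), and with RAMP2 or RAMP3 it binds adrenomedullin. In bone, Calcr is a classical surface marker of osteoclasts, on which calcitonin stops resorption, while CGRP from sensory nerves and adrenomedullin act on macrophages and on cells of the osteoblast lineage.

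Library totals ranged from 13987163 to 26105233 estimated counts. The 12 osteoclast markers, led by Ctsk (cathepsin K) and Acp5 (tartrate-resistant acid phosphatase), summed to 32539 to 34945 CPM (counts scaled to equal library size) in WT OC libraries. In the libraries labelled null OC the same sum was 1079 to 1504 CPM, beside 966 to 1145 CPM in WT BMM and 869 to 977 CPM in null BMM. All 12 markers were lower in null OC than in WT OC. Against null BMM, 9 of the 12 were higher in null OC and none lower (median log2 change 1.01), and Ctsk averaged 80.3 CPM in null OC and 3.99 CPM in null BMM, so the markers of the labelled cell type were raised there but far below WT OC. The 10 macrophage markers, led by C1qb and Cd68, summed to 12670 to 17096 CPM in null OC and to 5817 to 6277 CPM in WT OC. Osteoblast markers, led by Col1a1 and Ibsp, summed to at least 54033 CPM in each OB library and to at most 267 CPM in each BMM or OC library. OB libraries also held osteoclast markers, at 4460 to 5664 CPM in WT and 5312 to 8148 CPM in null, and macrophage markers, at 4283 to 4920 CPM in WT and 2900 to 3616 CPM in null. Mir324 itself was not analysed here, so its absence could not be checked in the null libraries.

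Calcr lies on the reverse strand of chromosome 6 (GRCm38, chr6:3685680-3764714) and has 5 annotated transcripts, all protein-coding. In WT OC its counts fell mostly on 2 of them that begin at different places: Calcr-205, starting at chr6:3763630, held 62.0% of the gene's TPM (abundance per transcript length) and Calcr-202, starting at chr6:3764714, held 34.9%. The stretches around both starts are shown because these transcripts held most of the Calcr counts. Each runs from 250 bases before to 50 bases after a RefSeq start (GRCm38.p6, reverse strand), and capitals mark motif matches.
Calcr start nearer to the coding exons, chr6:3763574-3763873: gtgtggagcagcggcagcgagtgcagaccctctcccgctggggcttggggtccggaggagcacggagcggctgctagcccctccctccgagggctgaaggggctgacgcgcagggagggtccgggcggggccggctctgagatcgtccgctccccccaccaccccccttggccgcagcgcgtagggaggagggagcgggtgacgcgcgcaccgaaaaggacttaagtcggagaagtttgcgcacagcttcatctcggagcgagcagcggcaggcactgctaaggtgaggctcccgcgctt
Calcr start farther upstream, chr6:3764664-3764963: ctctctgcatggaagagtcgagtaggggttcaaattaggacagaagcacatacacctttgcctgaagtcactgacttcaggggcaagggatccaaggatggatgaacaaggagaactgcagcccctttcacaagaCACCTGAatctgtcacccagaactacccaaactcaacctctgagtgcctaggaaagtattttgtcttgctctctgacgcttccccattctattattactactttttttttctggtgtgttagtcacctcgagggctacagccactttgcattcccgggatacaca
Both strands were searched for TGGAAA (NFAT), TGANTCA (AP-1), GAGGAA (the PU.1 core), TCANGTG (MITF) and TATAAA (the TATA box), of which the first 4 belong to factors that act in osteoclast precursors. The stretch farther upstream held 1 match to the pattern TCANGTG, on the reverse strand at position -115 from the start. It reads TCAGGTG, with G at the open base, and overlapped no other motif. Whether MITF binds this sequence was not tested. The stretch nearer to the coding exons held none of the 5. Among 32851 RefSeq promoters of the same length, TGGAAA occurred in 21.4%, TGANTCA in 7.81%, GAGGAA in 28.3%, TCANGTG in 14.3% and TATAAA in 13.6%.

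The Calcr transcripts differ further by an alternative coding exon of 111 bases, or 37 codons, at chr6:3707489-3707599, which Calcr-201 and Calcr-204 hold and Calcr-202, Calcr-203 and Calcr-205 leave out. In rodents this insert separates the C1b form of the receptor from the C1a form. The exon is printed with its capitals and 15 bases of each neighbouring exon in lower case.
Calcr alternative exon: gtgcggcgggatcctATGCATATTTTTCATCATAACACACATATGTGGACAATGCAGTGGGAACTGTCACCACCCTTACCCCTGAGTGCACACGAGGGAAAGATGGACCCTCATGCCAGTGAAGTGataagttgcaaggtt
Transcripts with the exon took a mean of 21.9 counts per WT OC library on Calcr-201, from 0 to 92.5, and 0 on Calcr-204 in all 6. Calcr-205 took 345 to 515 counts and Calcr-202 took 194 to 281. By these estimated counts, RNA without the exon made up most of Calcr in every WT OC library. Calcr-201 held a mean of 3.13% and at most 13.6% of Calcr TPM, and 3 of the 6 libraries had no count on it. In WT OB no library had a count on Calcr-201 or Calcr-204, at 12 to 30.4 counts of Calcr in all.

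**Figure D1:**
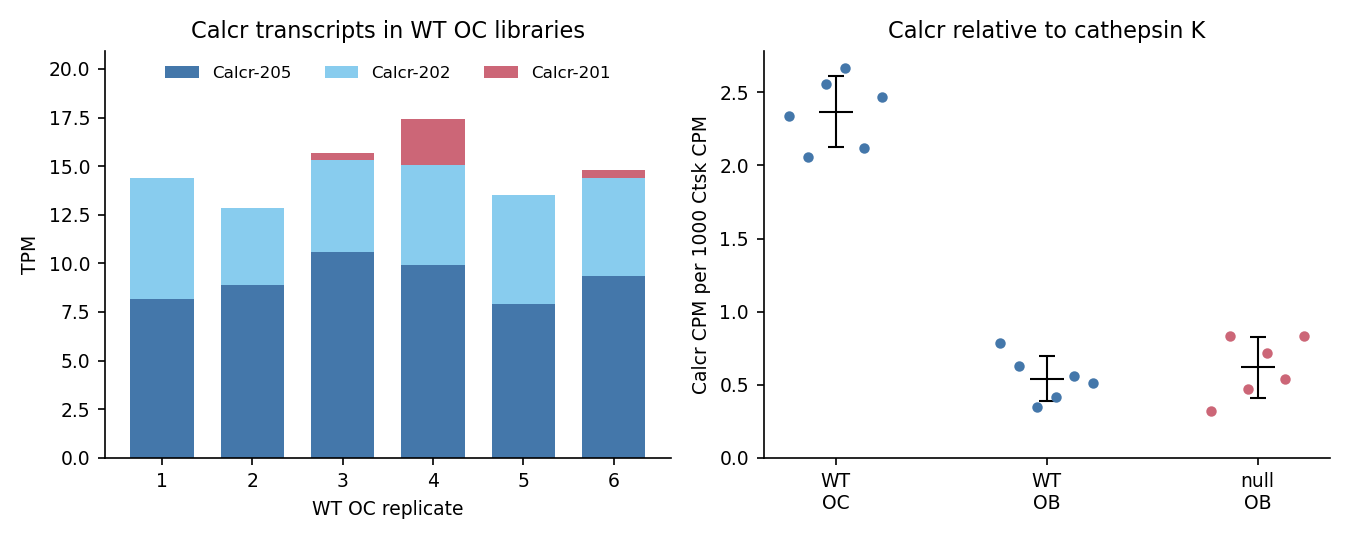
Left, TPM of the Calcr transcripts in each of the 6 WT OC libraries (stacked bars): Calcr-205 and Calcr-202 make up most of every bar, and Calcr-201 appears in 3 libraries, most in replicate 4. Right, Calcr CPM per 1000 Ctsk CPM in each library of the 3 groups with Calcr counts (points; black, mean and SD, n = 6): WT OC libraries sit between 2.06 and 2.67, above all 12 OB libraries.

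Calcr was by far most abundant in WT OC. It had 601, a median of 640.5 and at most 778 estimated counts per library there, or 29.8, 32.7 and 36.4 CPM, which is 14.8 ± 1.63 TPM (SD, n = 6). It had no count in any of the 6 WT BMM, 6 null BMM and 6 null OC libraries, and the groups did not overlap. A count of 0 allows up to 3 counts in a library, or 0.12 to 0.225 CPM across the 36 libraries, and this floor covers counting error only.

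Against that floor, Calcr was at least 207-fold higher in WT OC than in WT BMM (adjusted p = 5.27e-13, edgeR quasi-likelihood test with Benjamini-Hochberg adjustment) and at least 189.5-fold lower in null OC than in WT OC (adjusted p = 1.09e-12). Both comparisons share the WT OC libraries. Fewer osteoclasts and less Calcr RNA per osteoclast cannot be told apart in such bulk samples, here or for any member below. Cathepsin K fell in the same libraries, from 13912 ± 585 CPM in WT OC to 80.3 ± 69.6 CPM in null OC (SD, n = 6). Expressed per 1000 Ctsk CPM, Calcr was 2.37 ± 0.242 in WT OC, and the floor of 3 counts in a null OC library corresponded to 1.02 to 5.91 on that scale. Taken singly, part of the null OC libraries could thus not detect a Calcr level per cathepsin K like that of WT OC. All 6 null OC libraries had no Calcr count, and the 6 together were not tested on this scale.

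OB cultures held a low level of Calcr in every library. WT OB had 0.702, a median of 1.00 and at most 1.36 CPM, and null OB had 0.732, 1.68 and 2.05 CPM. The ranges of the genotypes overlapped, with a log2 change of 0.54 (SE 0.28, adjusted p = 0.15, edgeR), which did not pass the threshold of 0.05. WT OB was 31.4-fold lower than WT OC, with a log2 change of -4.97 (SE 0.22, adjusted p = 2.25e-15), and at least 6.52-fold higher than WT BMM (adjusted p = 2.82e-10). Osteoclast markers were present in these OB libraries, Ctsk at 1931 ± 163 CPM in WT OB, and their part in the Calcr level was not tested. Per 1000 Ctsk CPM, Calcr was 0.541 ± 0.155 in WT OB and 0.62 ± 0.21 in null OB, so no OB library reached the lowest WT OC library even on that scale.

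**Figure D2:**
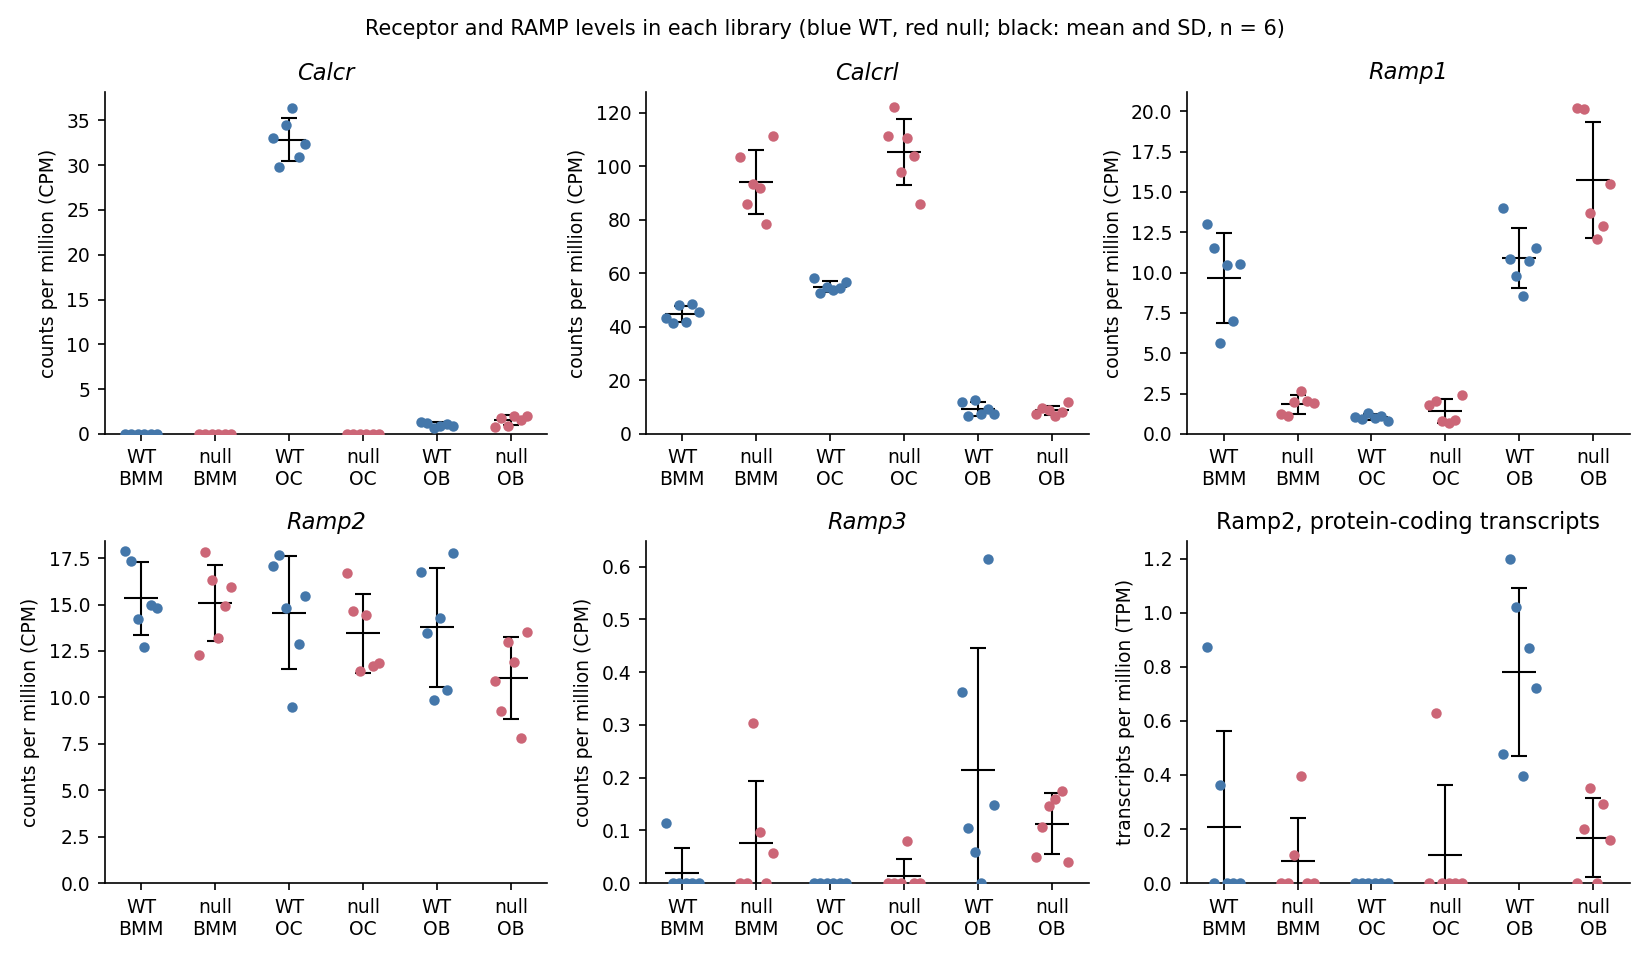
CPM of the 5 genes in each library by group, and TPM of the protein-coding Ramp2 transcripts (points; black, mean and SD, n = 6; bars reaching below 0 are clipped at 0; each panel has its own axis). Calcr is at 29.8 CPM or more in the WT OC libraries and at most 2.05 CPM in every other library, Calcrl is highest in null BMM and null OC, Ramp1 is high in WT BMM and both OB groups, and gene-level Ramp2 is alike in all 6 groups.

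Calcrl, the receptor that CGRP and adrenomedullin share, was above Calcr in all 6 groups per length, at 27.9 ± 1.67 TPM against 14.8 ± 1.63 TPM in WT OC (SD, n = 6). It lies on the reverse strand of chromosome 2 (chr2:84330626-84425411). In BMM the WT libraries had 41.4, a median of 44.4 and at most 48.4 CPM, and the null libraries had 78.4, 92.6 and 112 CPM. Every null BMM library was above every WT BMM library, and the log2 change was 1.08 (SE 0.09, adjusted p = 3.47e-08, edgeR). In OC the WT libraries had 52.6, 54.6 and 58.4 CPM and the null libraries 86.1, 107 and 122 CPM. These ranges did not overlap either, with a log2 change of 0.95 (SE 0.07, adjusted p = 7.27e-09).

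In OB, by contrast, Calcrl had 6.77, 8.36 and 12.8 CPM in WT and 6.69, 8.61 and 11.8 CPM in null, and the ranges overlapped almost entirely (log2 change -0.08, SE 0.18, adjusted p = 0.774). The genotype effect itself differed between cell types: in OB it was lower by 1.14 than in BMM on the log2 scale (SE 0.18, adjusted p = 1.72e-06) and lower by 1.01 than in OC (SE 0.18, adjusted p = 7.08e-06). Calcrl differed less between OC and BMM. WT OC was above WT BMM by 0.30 on the log2 scale (SE 0.08, adjusted p = 0.00282), null OC was above null BMM by 0.17 (SE 0.08, adjusted p = 0.156), and the difference between these changes was -0.12 (SE 0.12, adjusted p = 0.389). With a correction for length and GC content of transcripts, the difference between null OC and null BMM passed (0.26, adjusted p = 0.0138). WT OB was 4.83-fold below WT BMM (log2 change -2.27, SE 0.13, adjusted p = 2.24e-18) and 5.94-fold below WT OC (-2.57, SE 0.13, adjusted p = 6.35e-20).

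Ordered by CPM, Calcrl ran from null OC through null BMM, WT OC and WT BMM down to the OB groups, and among neighbours only null OC with null BMM and WT OB with null OB had overlapping libraries. The macrophage marker sum, printed above, was higher in null OC than in WT OC, with 8 of 10 markers higher and 1 lower. In BMM the sum was also higher in null, at 15940 to 17135 CPM against 13288 to 14894 CPM in WT, although 2 of the 10 markers were higher and 7 lower. The part of these markers in the Calcrl differences was not tested. Calcrl is also a gene of endothelial cells. The 13 endothelial markers, led by Pecam1 and Kdr, summed to 134 to 187 CPM in WT BMM, 161 to 322 in null BMM, 123 to 160.1 in WT OC and 118 to 276 in null OC. Of the 5 tested, 3 were higher and 1 lower in null BMM (median log2 change 0.53), and 2 were higher and 2 lower in null OC (0.33). Tek, Cldn5 and Robo4 were at or under the floor in every library of all 6 groups. In every BMM and OC library so were Emcn and Sox18, and in null OC also Tie1. The part of the endothelial markers in the Calcrl differences was not tested. Of the Calcrl transcripts, the noncoding Calcrl-203 of 500 bases held 27.2% of the gene's TPM in WT BMM from a mean of 22.5 of 860 counts, so TPM rests more on it than counts do.

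Ramp1, the partner that makes Calcrl a CGRP receptor, lies on the forward strand of chromosome 1 (chr1:91179822-91225196). It fell with RANK-L in WT and was low in both null marrow groups. WT BMM libraries had 5.64, a median of 10.5 and at most 13.0 CPM, WT OC libraries 0.775, 1.03 and 1.29 CPM, null BMM libraries 1.13, 1.96 and 2.64 CPM, and null OC libraries 0.679, 1.32 and 2.4 CPM. Every WT BMM library was thus above every library of the other 3 marrow groups, which overlapped one another.

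Relative to WT BMM, Ramp1 was 5.23-fold lower in null BMM (log2 change -2.39, SE 0.24, adjusted p = 5.08e-07, edgeR) and 9.33-fold lower in WT OC (-3.22, SE 0.28, adjusted p = 9.71e-11). These comparisons share the WT BMM libraries. Null OC against null BMM gave -0.36 (SE 0.29, adjusted p = 0.426), and null OC against WT OC gave 0.47 (SE 0.33, adjusted p = 0.222). The change from BMM to OC differed between genotypes by 2.86 on the log2 scale (SE 0.40, adjusted p = 9.25e-07).

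Sums over marker lists of other cell types also differed between the BMM genotypes. The 5 dendritic cell markers, led by Itgax and Zbtb46, summed to 10.4 to 19.6 CPM in the WT BMM libraries against 3.81 to 4.97 in null BMM, with 1 of the 2 tested lower and Cd209a at or under the floor in both groups. The 9 neutrophil markers, led by S100a8 and Camp, summed to 0.143 to 0.392 CPM in the WT BMM libraries against 6.47 to 17.3 in null BMM, with the 1 tested higher and 7 of 9 at or under the floor in each group, S100a9 and Ly6g among them. The 8 adipocyte markers, led by Lpl and Fabp4, summed to 474 to 1003 CPM in the WT BMM libraries against 209 to 316 in null BMM. Of the 3 tested, 2 were lower and 1 higher. Adipoq, Plin1, Lep, Cidec and Cfd were at or under the floor in both groups, so these 5 did not carry the sum. In WT OC libraries the same list summed to 837 to 951 CPM. Osteoblast markers summed to 10.6 to 28.9 CPM against 53.9 to 127 (3 of 4 tested higher, 1 lower), and the 9 pericyte and smooth muscle markers to 6.75 to 12.7 CPM against 23.2 to 28.8 (2 of 3 higher, 1 lower). The part of these lists in the Ramp1 and Calcrl differences was not tested.

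In OB, Ramp1 was as abundant as in WT BMM or more so. WT OB libraries had 8.54, 10.8 and 14.0 CPM, and null OB libraries had 12.1, 14.6 and 20.2 CPM. The ranges overlapped at their edges, and null OB was 1.43-fold higher (log2 change 0.52, SE 0.15, adjusted p = 0.0145, edgeR). That call was lost in a fit of all 36 libraries (0.53, adjusted p = 0.0582). The genotype effect in OB was above that in BMM by 2.92 (SE 0.32, adjusted p = 1.69e-09), and it was not shown to differ from that in OC, at 0.08 (SE 0.36, adjusted p = 0.878). WT OB stood 10.5-fold above WT OC (3.39, SE 0.25, adjusted p = 9.55e-15) and did not pass the threshold against WT BMM (0.17, SE 0.21, adjusted p = 0.46). Osteoblast markers summed to 54033 to 78147 CPM in WT OB and 96285 to 115917 CPM in null OB, with 6 of 9 higher in null and none lower, and their part in the Ramp1 difference was not tested.

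Ramp1 counts were divided over transcripts with different last exons. Ramp1-201, of 2325 bases, held 61.3% of the gene's TPM in WT BMM, 56.4% in WT OB and 59.9% in null OB, and Ramp1-202, of 852 bases, held 38.0%, 43.0% and 39.8%. The division was thus alike where Ramp1 was high, and Ramp1-203 held a mean of at most 0.711% in these groups.

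Ramp2, the adrenomedullin partner of Calcrl, looked uniform when all its transcripts were summed, with group means between 11.1 and 15.3 CPM, and it passed the threshold in none of the comparisons by edgeR, with no unadjusted p under 0.05. With a correction for length and GC content, OB against BMM in WT passed (-0.31, adjusted p = 0.0481). That sum rested on 1 annotated transcript. Ramp2 lies on the forward strand of chromosome 11 (chr11:101246028-101259546) and overlaps Vps25, a subunit of the endosomal ESCRT-II complex, on the same strand. Ramp2-203, annotated for nonsense-mediated decay and 1478 bases long, joins the first 2 Ramp2 exons to the exons of Vps25, and it held 91.5% of Ramp2 TPM in WT OB and at least 98.1% in the other 5 groups. Its junction is printed, with 30 bases of the Ramp2 exon in lower case and the 98 bases up to the last coding base in capitals (chr11:101253604-101253701). The 31 bases centred on the junction occur in no other annotated transcript.
Ramp2-203 junction: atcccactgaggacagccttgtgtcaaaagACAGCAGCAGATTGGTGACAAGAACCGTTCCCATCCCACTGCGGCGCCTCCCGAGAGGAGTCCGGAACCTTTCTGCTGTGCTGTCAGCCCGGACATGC
Of the 1448 different 31-base sequences in Ramp2-203, 1073 (74.1%) also occur in Vps25 transcripts, 242 (16.7%) in other Ramp2 transcripts, and 133 in neither. Vps25 itself had 802 to 1559 counts per library, against 157 to 367 on Ramp2-203. Estimated counts do not show which reads crossed the junction, so how much of Ramp2-203 was Ramp2 RNA cannot be told from these files.

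**Figure D3:**
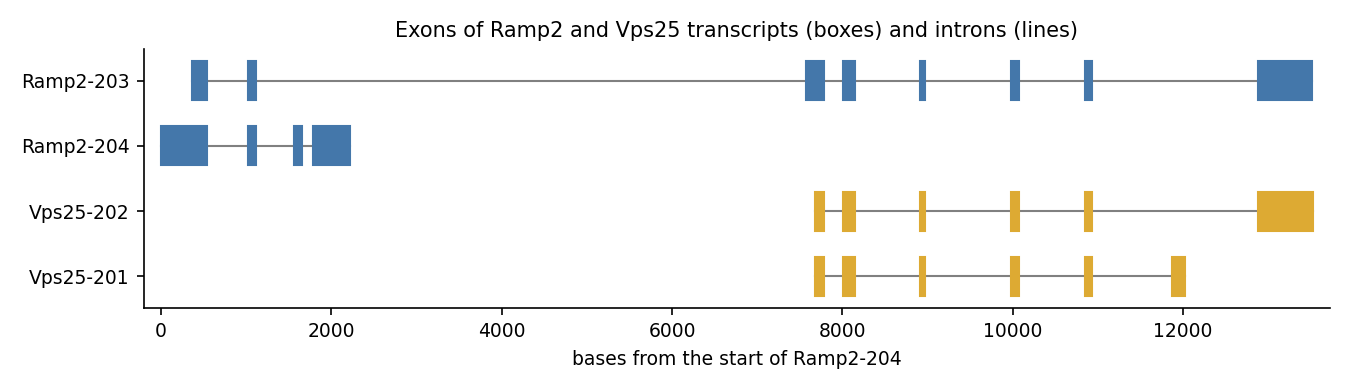
Exons (boxes) and introns (lines) of Ramp2-203, Ramp2-204, Vps25-202 and Vps25-201, in bases from the start of Ramp2-204. Ramp2-203 begins within the first exon of Ramp2-204, and its exons from 7576 bases onward overlap those of Vps25.

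The protein-coding Ramp2 transcripts alone gave another picture, chosen after their values were seen. WT OB libraries had 5.03, a median of 8.43 and at most 14.8 counts, which is 0.396, 0.795 and 1.2 TPM. Null OB libraries had at most 4.03 counts and 0.353 TPM, and 2 of them had none. Every WT OB library was above every null OB library, at 0.78 ± 0.31 TPM against 0.167 ± 0.146 TPM (SD, n = 6). An exact two-sided permutation test over 924 assignments gave p = 0.00216, the smallest it allows, and 0.00649 after Benjamini-Hochberg adjustment over the 3 cell types. In the marrow groups coding Ramp2 was above 3 counts in 1 null BMM library and in no other, it was 0 in all 6 WT OC libraries, and its genotypes overlapped in BMM (p = 0.727) and OC (p = 1, exact permutation tests). Markers of endothelial cells, which are known for Ramp2, summed to 104 to 196 CPM in WT OB and 85.2 to 145 CPM in null OB. Of the 6 tested, 1 was higher in null. Tek, Cldn5 and Robo4 were at or under the floor in both groups, and in WT OB so were Cdh5 and Emcn. The part of these markers in coding Ramp2 was not tested.

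Ramp3, the other adrenomedullin partner, was near the floor throughout. It lies on chromosome 11 (chr11:6658521-6677475, forward strand) and overlaps the antisense pseudogene Gm11978. WT OB libraries had 0, a median of 2.5 and at most 11 counts, with 2 of 6 above the floor of 3 counts, and null OB libraries had 1, 2.5 and 4 counts. WT OC had none in any library, and the largest count in WT BMM, null BMM and null OC was 2, 5 and 2. Its counts were too low for the fit across genes, so its levels were not tested. Its share of RAMP TPM, tested below with those of the other RAMPs, was not called in null against WT (exact permutation tests, adjusted p = 0.568 in BMM, 1 in OC and 0.764 in OB).

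Because the RAMP decides the ligand of Calcrl, the 3 RAMPs were also expressed as shares of their summed TPM. With all transcripts, Ramp1 made up 33.5% ± 7.03 of RAMP TPM in WT BMM, 8.54% ± 3.74 in null BMM, 6.76% ± 2.49 in WT OC, 8.74% ± 5.83 in null OC, 39.6% ± 5.88 in WT OB and 53.5% ± 7.68 in null OB (SD, n = 6). The share was lower by 25.0 percentage points in null BMM than in WT BMM and lower by 26.8 points in WT OC than in WT BMM (exact permutation test, adjusted p = 0.00812 over 15 tests for each). Nearly all the rest was Ramp2-203. Gene-level Ramp2 averaged 15.3 CPM in WT BMM, 15.1 in null BMM and 14.6 in WT OC. These 2 share differences thus largely mirror the Ramp1 changes given above and are no separate result. With protein-coding transcripts only, Ramp1 made up 97.4% ± 4.05 in WT BMM, 92.7% ± 9.52 in null BMM and 100% in each WT OC library, and neither difference was called (adjusted p = 0.852 for each, exact permutation test).

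In OB the share was called under both sums, of which the coding one was chosen after its values were seen. Ramp1 was higher in null than in WT by 13.9 points with all transcripts (adjusted p = 0.013, exact permutation test), a call lost without WT OB replicate 4 or 6 (adjusted p = 0.0584 for each), and by 6.85 points with coding transcripts, at 91.0% ± 3.08 in WT and 97.8% ± 1.40 in null (adjusted p = 0.0162, exact permutation test). Coding Ramp2 made up 6.7% ± 2.48 of coding RAMP TPM in WT OB and 1.04% ± 0.973 in null OB. These Ramp2 shares rest on at most 14.8 counts per library in WT OB and 4.03 in null OB. Shares sum to the whole, so the coding Ramp1 difference largely mirrors that of coding Ramp2 and is no separate result. By coding transcripts, Ramp1 was thus the main RAMP of all 6 groups.

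Counted over the family and read against all genes, the tests gave the following. Null against WT passed for 2 of 3 tested members in BMM (Calcrl higher, Ramp1 lower), where 52.4% of all tested genes passed, for 2 of 4 in OC (Calcrl higher, Calcr lower), where 65.5% passed, and for 1 of 4 in OB (Ramp1 higher), where 32.5% passed. OC against BMM passed for 3 of 4 in WT, where 60.5% of genes passed, and for 0 of 3 in null by edgeR, where 12.9% passed. Of those 3, Calcrl had an unadjusted p of 0.044. The change with RANK-L differed between genotypes for 1 of 3 members, against 51.4% of genes. Calcr was left out of any comparison in which 2 or more of the groups compared had no Calcr count. The shares over all genes had no such rule. Calcr is thus not among these 3 members. It averaged 32.8 CPM in WT OC and had no count in WT BMM, null BMM or null OC. OB against BMM in WT passed for 2 of 4, against 76.8%, and OB against OC in WT for 3 of 4, against 77.9%. The genotype effect differed between OB and BMM for 2 of 3 members, against 45.8% of genes, and between OB and OC for 2 of 4, against 55.3%. With the background this high, these counts show nothing particular to the family.

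**Figure D4:**
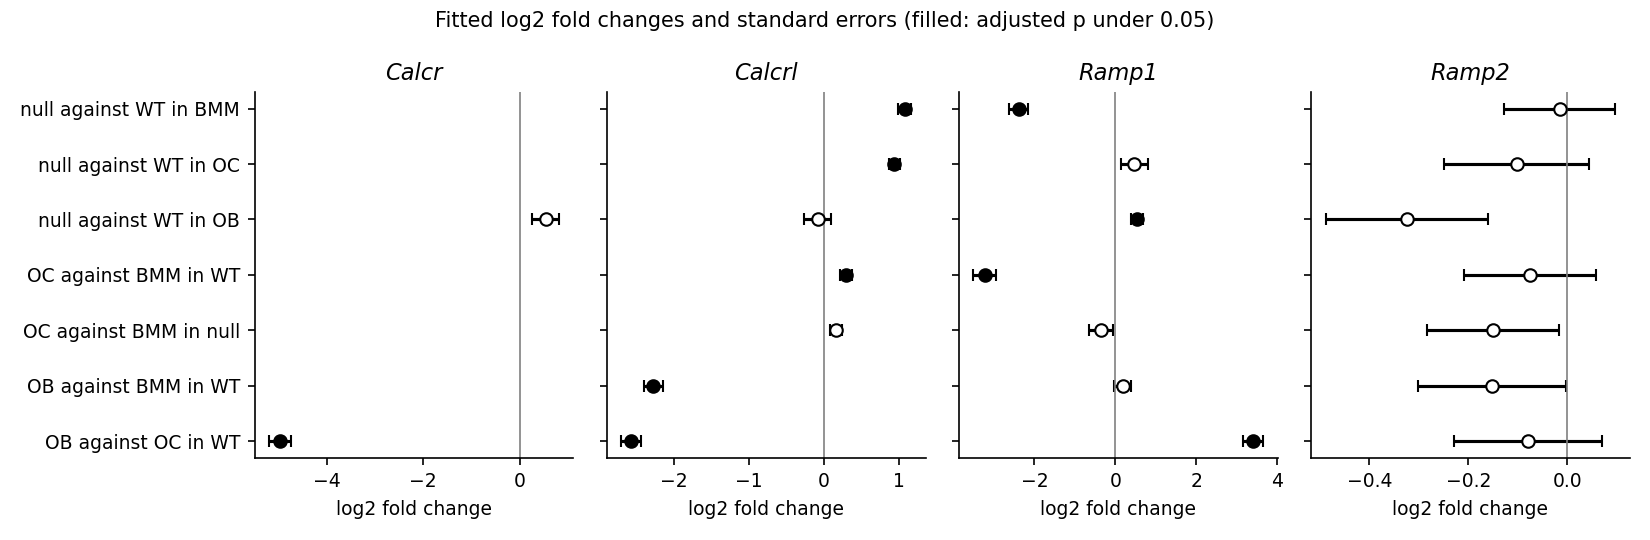
Fitted log2 changes with standard errors (edgeR) of the 4 members tested, one panel each with its own axis, filled where the adjusted p is under 0.05. Comparisons of Calcr with a group that had no count are left out; Calcrl and Ramp1 move in opposite directions in null BMM, and no Ramp2 point is filled.

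The peptide ligands were scarce in BMM and OC, and Adm2 was the abundant one in OB. Of 11 genes for ligands and their handling, chosen with earlier results known, Iapp (amylin) had no count in any library and Calca, which encodes calcitonin and αCGRP, had at most 9 counts in a library. Calcb (βCGRP) was at 0.0994 ± 0.0775 CPM in WT BMM libraries, beside 1.12 ± 0.449 for null BMM. Every null library was above every WT library, with a log2 change of 3.47 (SE 0.47, adjusted p = 1.43e-05, edgeR). No WT BMM library exceeded the floor of 3 counts, so the size of this change is uncertain. In OC, Calcb had at most 1 count in WT and reached 47 in null, 0.356 to 3.42 CPM. Adm (adrenomedullin) reached at most 1.17 CPM in a library, and Adm2 (intermedin) was high in OB alone, at 15.3 ± 2.76 CPM in WT and 12.01 ± 7.96 in null, or 26.0 and 23.1 TPM.

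Genes that process or remove the peptides differed too. Pam, which amidates peptide hormones, was higher in null BMM (64.5 ± 16.2 against 36.3 ± 5.09 CPM, log2 change 0.84, adjusted p = 0.000279) and in null OC (0.43, adjusted p = 0.00218). Ece1, an endothelin-converting protease that degrades CGRP inside the cell, fell with RANK-L in WT from 40.3 ± 2.73 to 5.4 ± 0.777 CPM (-2.90, adjusted p = 1.55e-18) and was at 55.8 ± 7.34 CPM in null OC, 3.38 above WT OC (adjusted p = 1.9e-13). Both Ece1 comparisons share the WT OC libraries. Mme (neprilysin) was lower in null BMM (-1.60, adjusted p = 0.000319) and higher in null OB (0.75, adjusted p = 0.0167). In all, 3 of 5 tested genes of this list were higher and 1 lower in null BMM, 2 of 5 higher in null OC and 2 of 6 higher in null OB, with median log2 changes of 0.32, 0.01 and -0.00107, beside 0.02, -0.03 and 0.00186 over all genes. Of all tested genes, 27.0% were higher and 25.3% lower in null BMM, 32.4% and 33.1% in null OC, and 15.5% and 16.9% in null OB.

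The 28 genes that couple the receptors to G proteins and cyclic AMP moved in both directions. In null BMM 11 of 25 tested were higher and 9 lower, where 27.0% of all tested genes were higher and 25.3% lower, with a median log2 change of 0.02 beside 0.02 over all genes. In null OC 15 of 25 were higher and 5 lower (0.43 beside -0.03), against 32.4% and 33.1% of all genes. In null OB 7 of 28 were higher and 2 lower (0.14 beside 0.00186), against 15.5% and 16.9%. Adcy3, an adenylyl cyclase, was at 85.0 ± 5.26 CPM in WT BMM and 273 ± 14.8 in WT OC and at 8.63 ± 2.2 and 12.1 ± 1.9 in the null groups (null against WT -3.29, adjusted p = 1.9e-11 in BMM, and -4.49, adjusted p = 2.86e-16 in OC). Grk3, a kinase that desensitises receptors, rose with RANK-L in WT from 2.52 ± 0.428 to 172 ± 13.1 CPM (6.09, adjusted p = 7.91e-22), as Calcr did, and was at 7.19 ± 1.98 CPM in null OC (-4.59, adjusted p = 2.65e-13). In OB Grk3 was higher in null (1.10, adjusted p = 5.51e-05).

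Prkar2b, a regulatory subunit of protein kinase A, was higher in null BMM (1.81, adjusted p = 7.88e-08) and null OC (2.72, adjusted p = 5.22e-12). Prkacb, a catalytic subunit, was lower in null BMM (-1.25, adjusted p = 4e-10), and Pde4b, which breaks down cyclic AMP, was higher there (2.43, adjusted p = 7.82e-13). Arrb2 (β-arrestin 2) was at 96.8 ± 5.89 CPM in WT OC and 317 ± 42.4 in null OC (1.72, adjusted p = 1.63e-11), and it was lower in null OB (-0.45, adjusted p = 0.000329). Rgs2, an inhibitor of G protein signalling, was lower in null OB as well (-0.52, adjusted p = 0.000304), and Gnaq was higher (0.33, adjusted p = 0.000459). In WT, 16 of 25 tested coupling genes were lower in OC than in BMM and 6 higher (median -0.44), where 30.1% of all genes were lower and 30.4% higher (median -0.00284). Among them were Prkacb (-1.65, adjusted p = 4.83e-16), Arrb2 (-1.54, adjusted p = 1e-14) and, upward, Adcy3 (1.68, adjusted p = 1.19e-13). OC against BMM in WT and null against WT in OC share the WT OC libraries, so their coupling genes are not independent results.

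**Figure D5:**
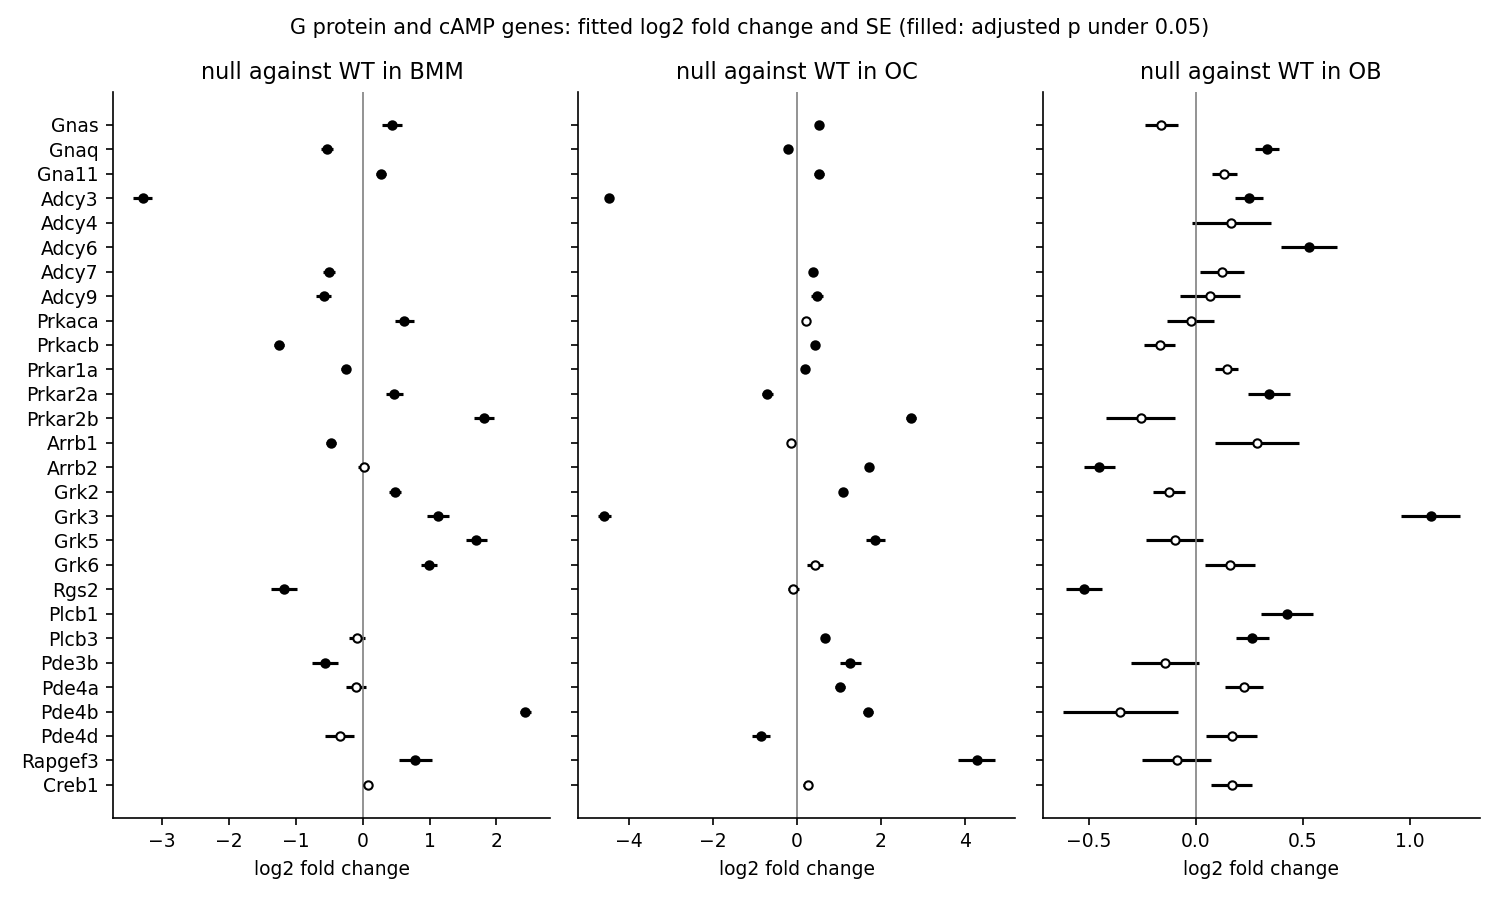
Fitted log2 change of null against WT with its standard error (edgeR) for the 28 G protein and cAMP genes in BMM, OC and OB, one panel each with its own axis, filled where the adjusted p is under 0.05; untested genes have no point. Adcy3 lies far to the left in BMM and OC, Grk3 to the left in OC and to the right in OB.

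Among 8 cAMP-responsive genes, 1 of 6 tested was higher and 3 lower in null BMM, 1 of 7 higher and 4 lower in null OC, and 0 of 8 passed in OB by edgeR (median log2 changes -0.19, -0.48 and -0.03, beside 0.02, -0.03 and 0.00186 over all genes). The shares of all genes that passed were 52.4%, 65.5% and 32.5%, so the counts in BMM and OC lay near the background. Fos was higher in null BMM (0.89, adjusted p = 2.87e-07) and lower in null OC (-1.26, adjusted p = 9.02e-09), and Nr4a1 was lower in both (-1.43, adjusted p = 0.000447, and -2.69, adjusted p = 1.38e-07). Per1 was lower in null BMM (-0.79, adjusted p = 4.34e-05) and Crem higher in null OC (0.74, adjusted p = 0.000236). In WT, OC were above BMM in Fos (2.16, adjusted p = 6.87e-17) and Nr4a2 (2.07, adjusted p = 7.11e-05) and below them in Per1 (-0.85, adjusted p = 2.23e-06) and Crem (-0.66, adjusted p = 0.00135).

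Of 15 other receptors reported to pair with RAMPs, only Vipr1, a receptor for vasoactive intestinal peptide, was tested in BMM and OC. It was at 3.14 ± 1.26 CPM in WT BMM, 0.903 ± 0.799 in null BMM and 0.645 ± 0.252 in WT OC. It was lower in null BMM (-1.79, adjusted p = 0.00301) and in WT OC (-2.27, adjusted p = 0.000245). These comparisons share the WT BMM libraries. Glp1r, the receptor for glucagon-like peptide 1, had no count in any BMM or OC library and was at 0.408 ± 0.264 CPM in WT OB and 1.83 ± 0.882 in null OB (2.11, adjusted p = 0.00221).

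The genes most like each member were taken by Pearson correlation of log2 CPM (prior count 2) over the 36 libraries, among 13532 genes. The points share 6 group levels, so these values describe likeness of group pattern and carry no test. Calcr was closest to Pheta1 (r = 0.992), Nudt22 (0.989) and Rai14 (0.979). All 3 were highest in WT OC, Pheta1 at 364 CPM there and 13.9 CPM in null OC, but unlike Calcr they had counts in every group. Calcrl was closest to Slc31a1 (0.986), Tnip3 (0.985) and Selplg (0.981), and Tnip3 went from 57.5 CPM in WT BMM to 148 in null BMM and 9.16 in WT OB. Ramp1 was closest to Hpgd (0.959), which breaks down prostaglandins, then Cd164 (0.945) and Sgcb (0.938). Mean Hpgd was 119 CPM in WT OB, 44.7 CPM in WT BMM, 5 CPM in null BMM and 1.31 CPM in WT OC. For Ramp2, whose group means hardly differed, the closest were Dnajc30 (0.664), H3f3a (0.635) and Trex1 (0.622).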

How the data were processed

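Per the file headers, each deposited table covers 1 library and gives, for every Ensembl transcript, 2 lengths (full and effective), the estimated count and the TPM. Per the submitters' processing notes, kallisto and DESeq2 were used, with no versions, and the build named is GRCh38, a human build, although the transcripts are mouse. The annotation and the strand setting are not given in the sources used here. Estimated counts deposited by the authors need not be whole and divide shared reads between overlapping transcripts, and the TPM values deposited by the authors are per length and carry no depth.

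Of 88198 transcripts, 86119 (97.6%) matched GENCODE M21 (GRCm38) by identifier. The rest held 0.606% to 0.96% of a library's counts and were left out. Gene sums of the counts were rounded, passed through filterByExpr, put on a common scale by TMM and compared by edgeR 4.0.16 in R 4.3.3 (quasi-likelihood F test, robust). The Benjamini-Hochberg adjustment ran over every gene in a comparison, with a threshold of 0.05. Genotype comparisons used the 12 libraries of a cell type, OC against BMM used 24, and comparisons with OB used 36. The comparisons of the genotype effect between OB and the other cell types were added after the data were seen. CPM are counts scaled by TMM to equal library size. RAMP shares were compared by exact permutation over 15 tests. The edgeR comparison of genotypes was tested on simulated counts modelled on the 12 BMM libraries.

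The members and lists were chosen with earlier results of these data known. Named were the 5 members, up to 2 higher and 2 lower list genes with the smallest p in each comparison, list genes near 0 whose role needed saying, the 3 genes most like each member and the 2 most abundant markers of each list. Promoters came from RefSeq (GRCm38.p6) for 4 members; Ramp2 was not matched. Alternatives were RLE scaling, other filters, DESeq2 1.42.0, limma-voom 3.58.1, offsets, a replicate block, a fit of 36 libraries, leaving out each library and, added later, coding transcripts only.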

Additional observations from a re-analysis of the deposited data

Results flagged for a closer look

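Effects that differed between groups under a test of the difference itself were found for 3 members. The change of Ramp1 from BMM to OC differed between genotypes by 2.86 on the log2 scale (SE 0.40, adjusted p = 9.25e-07, edgeR), with WT libraries all falling to near the level that null libraries had in both groups. The genotype effect on Ramp1 differed between OB and BMM by 2.92 (SE 0.32, adjusted p = 1.69e-09), with null lower in BMM and higher in OB. The genotype effect on Calcrl differed between OB and BMM by -1.14 (SE 0.18, adjusted p = 1.72e-06) and between OB and OC by -1.01 (SE 0.18, adjusted p = 7.08e-06), with null higher in the marrow cells. For Calcr, OB and OC differed in the genotype effect by a fitted value of 12.85 (SE 0.53, adjusted p = 2.35e-15), which depends on the prior count because null OC had no count and is no measure of size. No library stood apart from the other 5 of its group by Dixon's criterion in the member and group pairs with counts above the floor.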

How the results depend on the processing

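Under RLE scaling, both other filters, DESeq2, limma-voom, the length offset alone and the replicate block alone, the log2 changes of the tested members kept their direction and their side of the threshold in every comparison; the block changed no call of a member. RLE scaling and DESeq2 moved the median of all genes in OB against BMM in WT from 0.08 to 0.14. With 1 fit of all 36 libraries Ramp1 in null OB gave 0.53 (adjusted p = 0.0582, edgeR). With the correction for length and GC content Calcrl in null OC against BMM gave 0.26 and passed, also together with the replicate block (0.26), and Ramp2 in WT OB against BMM gave -0.31, and -0.32 with the block. The difference between OB and OC in the genotype effect on Ramp2 was -0.21 and turned to 0.054 and, with the block, 0.042, neither past the threshold. The cause of these was not tested.

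With coding transcripts alone, an alternative chosen after seeing the data in which the read-through transcript leaves the sum, the RAMP shares of Ramp1 and Ramp2 differed by -4.70 and 0.733 points in null against WT BMM, by -6.74 and 4.38 in OC, and by 2.61 and -2.41 in WT OC against BMM. From counts, the Ramp1 share in null OC against BMM gave -1.43. Same-numbered libraries showed little shared deviation from their group means, with correlations from -0.131 to 0.104. The labels do not say whether they came from the same mice. The replicate block moved the genes called in null OC against BMM from 1629 to 986, and with the correction to 767; limma-voom called 1013, and leaving out 1 library gave 811 to 2143, moving the count by over 1.5 times for null BMM replicates 2, 3 and 4 and null OC replicate 3. In null against WT OB the correction gave 2291 and with the block 1980, beside 4421.

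Leaving out 1 library at a time gave ranges across 0 or the threshold as follows. Ramp2 ran from -0.068 to 0.035 in null against WT BMM, from -0.14 to 0.021 in WT OC against BMM and from -0.17 to 0.0095 in WT OB against OC. Calcrl ran from -0.18 to 0.029 in null against WT OB and from 0.12 to 0.23 in null OC against BMM, passing without null BMM replicate 6 alone (adjusted p = 0.0495, edgeR). The OB and OC difference for Ramp1 ran from -0.090 to 0.23. In points, the Ramp1 and Ramp2 shares ran from -2.0004 to 1.42 and -1.05 to 2.39 in null OC against BMM, from -0.225 to 2.93 and -2.995 to 0.0948 in null against WT OC, and from 11.9 to 15.4 and -15.2 to -11.4 in null against WT OB, where 2 and 7 of 12 omissions lost the call, for Ramp1 those of WT OB replicates 4 and 6 (exact permutation test, adjusted p = 0.0584 for each). Depth limits Ramp3 and coding Ramp2 to a few counts. The Calcr floor of single null OC libraries, 1.02 to 5.91 per 1000 CPM of cathepsin K, spans the 2.06 to 2.67 measured in WT OC. All null OC libraries had no Calcr count, and they were not tested together on this scale.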
